A study of Bos taurus with 30 samples.

Results

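The miR-219 and miR-338 microRNAs were examined in the arcuate nucleus (ARC) of 30 bull calves. They comprised every entry of the deposited table whose name carried the stem miR-219 or miR-338, with any arm or copy suffix. This gave 5 of the 1030 mature miRNAs listed, namely miR-219-3p, miR-219-5p, miR-219b-3p, miR-338 and an entry named miR-219 without an arm. The ARC is a nucleus of the hypothalamus with neurons that sense metabolic hormones. All calves were Holstein-Friesian. The 15 HI calves had a high plane of nutrition, with 1.5 kg of milk replacer in 10 litres per day and concentrates to appetite. The 15 MOD calves had a moderate plane, with 0.5 kg of milk replacer in 4 litres and 0.5 kg of concentrates per day. The diets ran from 2 weeks of age until tissue was taken at 12 weeks, and each calf gave 1 small RNA library. The comparison of diets asked how early nutrition is reflected in the miRNAs of this region.

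Oligodendrocytes are the glial cells that wrap axons of the central nervous system in myelin. They arise from dividing progenitors, which leave the cell cycle before they make myelin. In rodents, miR-219 and miR-338 rise as progenitors mature and repress genes that hold them in the dividing state, among them the growth factor receptor gene Pdgfra and the transcription factor genes Sox6 and Hes5. The mRNA markers of oligodendrocytes were not analysed here, so the cellular source of the reads was not tested. In tissue of mixed cells, fewer cells of a type and less miRNA per cell cannot be told apart.

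In the RefSeq annotation of the ARS-UCD2.0 assembly, 4 genes carry these stems. MIR338 (gene identifier 100313034) lies on chromosome 19 and overlaps AATK, the gene of a kinase of neural tissue, as well as another miRNA gene, MIR3065. MIR219-1 (100313021) lies on chromosome 11 between the protein-coding genes URM1 and CERCAM, and MIR219B (114483214) overlaps it. MIR219-2 (102465994) lies on chromosome 23 between HSD17B8 and RING1. The authors used ARS-UCD1.2, so no coordinates are given, and the sources used here do not say which of these genes each miR-219 entry was assigned to. Near-identical mature sequences could share reads, so the split among the miR-219 entries is uncertain.

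Each HI library held between 6291376 and 21083250 reads assigned to miRNAs, and each MOD library between 7026125 and 20717302. There were 21 shallower libraries of at most 8988039 reads and 9 deeper ones, 3 HI and 6 MOD, of at least 17193358. Levels are the deposited values, which have the form of CPM, reads scaled to a fixed total, with library sizes adjusted by TMM. TMM is a method that allows for abundant miRNAs taking a changing share of reads. The normalization itself is not given in the sources used here. The libraries also differed in miRNAs of the adjoining pituitary gland, such as miR-375 and miR-182. Their summed level ranged from 2325 to 100739 CPM in HI (median 5775) and from 2289 to 84373 CPM in MOD (median 5827). A score of these miRNAs, the mean of their centred log2 levels, set 9 calves (5 HI and 4 MOD) above the other 21, with no score between -0.15 and 1.77. Of the 10 listed pituitary miRNAs 8 passed the filter on low counts. None was called between the diets (smallest adjusted p = 0.982 from limma), against 0% of all 476 tested miRNAs. All 8 had a log2 fold change above 0, from 0.02 to 0.89 with a median of 0.64. The median over all tested miRNAs was -0.0022. The median of the summed level was nonetheless slightly lower in HI than in MOD.

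Of the 5 members, miR-338 was the most abundant and ranked 55 among all miRNAs by mean level. In the HI calves the lowest value of miR-338 was 1197 CPM, the median 2326 CPM and the highest 10419 CPM. In the MOD calves the lowest was 1699 CPM, the median 2170 CPM and the highest 5179 CPM. The MOD values lay wholly inside the HI range. The highest calf was HI calf 3, and the next was MOD calf 14 with the MOD maximum. As a share of the reads counted, miR-338 ran from 0.0837% in HI calf 7 to 0.903% in HI calf 3, with a median of 0.247% over the 30 calves.

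Next came miR-219-3p, at rank 109. Its HI values ran from 171 CPM through a median of 427 CPM to 2545 CPM, and its MOD values from 267 CPM through 425 CPM to 1443 CPM. The other arm, miR-219-5p, ranked 154. It ran from 56.7 CPM through 172 CPM to 912 CPM in HI and from 96.4 CPM through 156 CPM to 620.2 CPM in MOD. For both arms the group medians were close while the extremes of HI reached beyond MOD at both ends.

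The remaining entries were scarce. The values of miR-219b-3p were between 2.04 and 6.02 CPM in HI (median 3.66) and between 2.82 and 5.55 CPM in MOD (median 3.74), worth 11 to 99 reads per library. The entry miR-219 ranged from 0.221 to 1.66 CPM in HI (median 0.825) and from 0.260 to 1.34 CPM in MOD (median 0.994). It rested on 2 to 27 reads per library, and 5 HI calves and 1 MOD calf had 3 reads or fewer. It was the member that did not pass the filter on low counts. The groups overlapped for all 5 members.

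**Figure D1:**
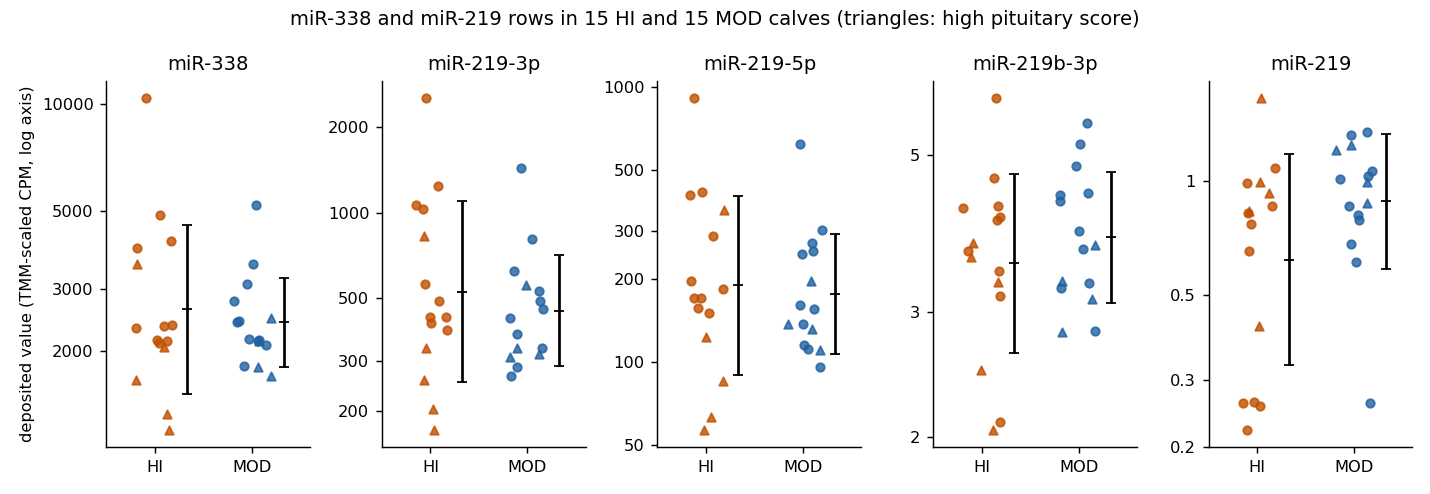
Level of each miR-338 and miR-219 entry (TMM-scaled CPM, log axis) in each of 15 HI (orange) and 15 MOD (blue) calves. Triangles mark calves with a high pituitary score, and black bars give the mean ± SD of the log2 levels. HI and MOD overlap in every panel, and the highest miR-338 value is the 10419 CPM of HI calf 3.

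The order of the members by level, miR-338 above miR-219-3p above miR-219-5p, was the same in each of the 30 calves. The ratio of miR-338 to miR-219-3p was between 3.59 and 7.27, and that of miR-219-3p to miR-219-5p between 1.99 and 3.59. The ranges of these 3 members did overlap between calves, since the 171 CPM of miR-219-3p in HI calf 7 was below the 912 CPM of miR-219-5p in HI calf 3. From the lowest to the highest calf, miR-219-5p spanned 16.1-fold, miR-219-3p 14.9-fold and miR-338 8.71-fold. The span was 2.94-fold for miR-219b-3p, and 7.49-fold for miR-219 with its few reads.

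The question of the design was whether these levels differed with diet, and no member was called different. HI averaged 3101 ± 2282 CPM (SD, n = 15) of miR-338 against 2528 ± 884 CPM (SD, n = 15) in MOD. For miR-219-3p the mean was 692 ± 610.2 CPM (SD, n = 15) with the HI diet, while with the MOD diet it was 504 ± 299 CPM (SD, n = 15). For miR-219-5p they were 249 ± 216 CPM (SD, n = 15) and 203 ± 133 CPM (SD, n = 15). The SD within each group was larger than the difference between the means for all 3 miRNAs. The values were tested as log2(CPM + 0.25) with limma, a moderated linear model, over the 476 miRNAs that passed the filter, and fold changes are on that scale.

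For miR-338 HI exceeded MOD by a log2 fold change of 0.12 (standard error 0.22, adjusted p = 0.982 from limma with Benjamini-Hochberg adjustment). Its 95% interval ran from -0.34 to 0.58. For miR-219-3p it was 0.23 (standard error 0.31, adjusted p = 0.982 from limma), with a 95% interval from -0.40 to 0.86. For miR-219-5p it was 0.10 (standard error 0.32, adjusted p = 0.984 from limma), with a 95% interval from -0.56 to 0.76. The upper ends of the intervals of both miR-219 arms lay past a 1.5-fold change, the size used for a call, so these data do not exclude a difference of that size.

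For the scarce miR-219b-3p, HI averaged 3.65 ± 1.01 CPM (SD, n = 15) and MOD 3.91 ± 0.845 CPM (SD, n = 15). MOD was slightly higher, with a log2 fold change of -0.11 (standard error 0.13, adjusted p = 0.982 from limma), with a 95% interval from -0.37 to 0.14. The entry miR-219 was tested alone, with HI at 0.734 ± 0.398 CPM (SD, n = 15) and MOD at 0.941 ± 0.292 CPM (SD, n = 15). Its difference in mean log2 level was -0.34 (two-sided permutation test, p = 0.0845). Above the HI median lay 10 of 15 MOD calves, and above the MOD median 2 of 15 HI calves.

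Thus 0 of the 4 tested members were called (a fold change above 1.5 with an adjusted p under 0.1), against 0% of all 476 tested miRNAs. At an unadjusted p under 0.05 in limma the members also numbered 0 of 4, with 4.41% of all tested miRNAs below it. Applied to recovered reads, neither edgeR's quasi-likelihood test nor the Wald test of DESeq2 called a member, or gave one an unadjusted p under 0.05. Over all 476 miRNAs, edgeR called 0% and DESeq2 0.21%, which was 1 miRNA. Both gave larger log2 fold changes than limma, at 0.47 (edgeR) and 0.48 (DESeq2) for miR-219-3p and at 0.31 and 0.32 for miR-338. Permutation tests of the single members gave p = 0.621 for miR-338, p = 0.487 for miR-219-3p, p = 0.770 for miR-219-5p and p = 0.380 for miR-219b-3p (two-sided).

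For miR-338 and miR-219-5p the direction of the small difference rested on 1 calf. Without HI calf 3, the log2 fold change of miR-338 was -0.023 and that of miR-219-5p was -0.063. Without the 9 calves of high pituitary score, a setting chosen after seeing the data, the log2 fold change was 0.52 for miR-219-3p (unadjusted p = 0.126 from limma) and 0.29 for miR-338 (unadjusted p = 0.248 from limma), with 10 HI and 11 MOD calves left. Among the 9 calves of high score, 5 HI and 4 MOD, the log2 difference had the opposite sign, at -0.29 for miR-219-3p, -0.41 for miR-219-5p and -0.15 for miR-338, and it was not tested. With the pituitary score as a term over all 30 calves it was 0.32 for miR-219-3p (unadjusted p = 0.228 from limma) and 0.19 for miR-338 (unadjusted p = 0.330 from limma).

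Among the deeper libraries miR-219-3p had a log2 difference of 0.70 (exact permutation test, p = 0.238, 3 HI against 6 MOD calves), and among the shallower of 0.14 (exact permutation test, p = 0.729, 12 HI against 9 MOD calves). For miR-338 these were 0.32 (exact permutation test, p = 0.429) and 0.11 (exact permutation test, p = 0.733). The calves were also split by the codes in their labels, into the 9 lowest and the rest. Among the 9, the difference of miR-338 was 0.17 (exact permutation test, p = 0.917, 7 HI against 2 MOD calves), and among the rest 0.06 (exact permutation test, p = 0.759, 8 HI against 13 MOD calves). No member differed between the depth classes or between the code classes at an unadjusted p under 0.05 (10 exact permutation tests, smallest p = 0.321).

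Although diet did not separate the calves, miR-338 and miR-219 rose and fell together from calf to calf. On the log2 scale, Pearson's r of miR-219-3p with miR-338 was 0.975 over the 30 calves and Spearman's rho was 0.948 (permutation tests, p = 1e-05 each, the smallest that 100000 resamples can give). Without HI calf 3 and MOD calf 14, the 2 farthest from the median of miR-219-3p, r was 0.969. This held for miRNAs from separate chromosomes, if the RefSeq genes named above are their source. The 2 arms of miR-219 were as close, with r = 0.977 and rho = 0.976 (permutation tests, p = 1e-05 each).

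The relation of miR-219-3p with miR-338 was present within each diet and within each class of pituitary score. Within HI r was 0.986 and within MOD it was 0.951 (permutation tests, p = 1e-05 each, n = 15 each). Among the 21 calves of low pituitary score r was 0.967 (permutation test, p = 1e-05). Among the 9 of high score it was 0.980 (exact permutation test, p = 8.267e-06). After Benjamini-Hochberg adjustment over the 16 relations computed, the p-values of r for these relations were 2.667e-05 each. With diet, depth class and code class removed, r was 0.974, and with levels scaled by library size alone it was 0.972. No relation to the total of the deposited values per library was detected, with r = 0.0457 for miR-219-3p and r = 0.0293 for miR-338 (permutation tests, p = 0.812 and p = 0.879). Without HI calf 7 and MOD calf 4, the 2 farthest from the median total, r was 0.332 and 0.327.

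**Figure D2:**
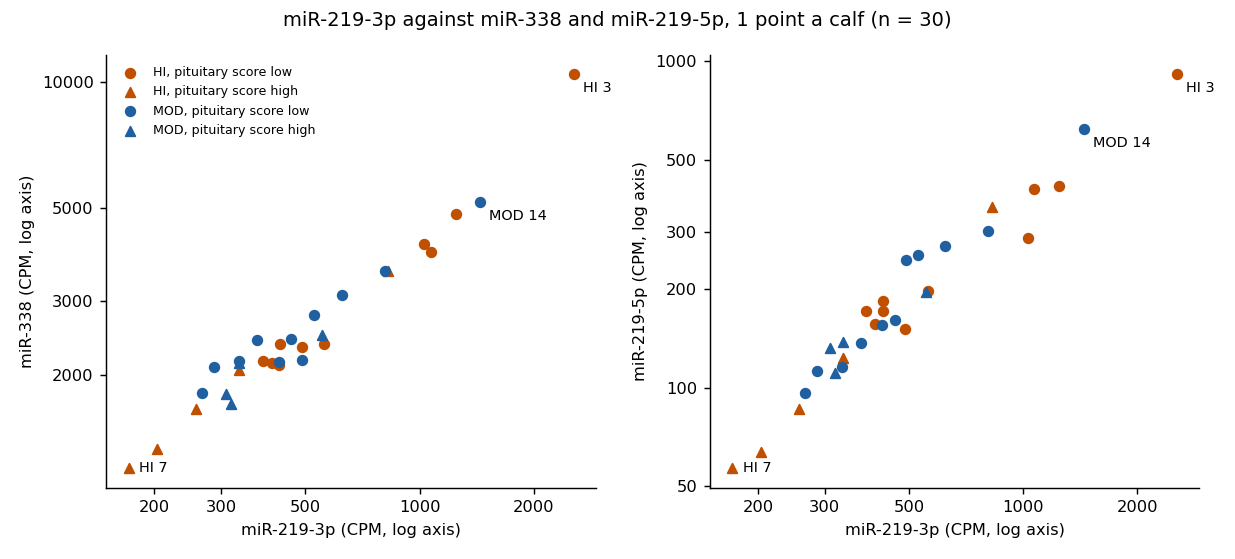
Level of miR-338 (left) and miR-219-5p (right) against miR-219-3p (CPM, log axes), with 1 point a calf. Colours give the diet and triangles the calves of high pituitary score. Points of both diets follow 1 line, from HI calf 7 at the bottom to HI calf 3 at the top, with r of 0.975 and 0.977.

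The same calves stood at the ends of both miRNAs. The 3 highest for miR-219-3p, HI calf 3, MOD calf 14 and HI calf 1, were also the 3 highest for miR-338. Likewise HI calves 7, 2 and 6 were the 3 lowest for both. Among the 8 highest calves all 8 were shared and 5 of them were HI, and among the 8 lowest 7 were shared. Neither scarce entry followed this order, with an r against miR-219-3p of -0.03 for miR-219b-3p and -0.29 for miR-219, where the reads are few.

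The change was less steep for miR-338 than for miR-219-3p, with an SD of log2 levels of 0.63 against 0.87 over the 30 calves. The ratio of miR-338 to miR-219-3p was lowest, at 3.59, in MOD calf 14 and highest, at 7.27, in MOD calf 3. This ratio, which does not depend on the scaling of a library, had a mean of 5.09 ± 1.08 (SD, n = 15) for HI calves, against 5.46 ± 1.05 (SD, n = 15) for MOD calves. Its log2 difference between the diets was -0.11 (two-sided permutation test, p = 0.321), tested after the values had been seen.

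The ratio of the arms, miR-219-3p to miR-219-5p, averaged 2.80 ± 0.383 (SD, n = 15) for HI calves, against 2.56 ± 0.296 (SD, n = 15) for MOD calves. The log2 difference was 0.13 (two-sided permutation test, p = 0.0701, adjusted over the 2 ratios p = 0.140). Above the MOD median lay 9 of 15 HI calves, and above the HI median 4 of 15 MOD calves. Calves of low animal code had a difference of 0.07 between the diets (exact permutation test, p = 0.444, 7 HI against 2 MOD calves), and the rest one of 0.06 (exact permutation test, p = 0.471, 8 HI against 13 MOD calves). The ratio itself was higher in the calves of low code, by a log2 ratio of 0.21 (exact permutation test, p = 0.00357, adjusted over 4 tests p = 0.0143), and 7 of those 9 calves were HI. By depth, the difference between the diets was 0.18 in deeper libraries (exact permutation test, p = 0.202) and 0.12 in shallower ones (exact permutation test, p = 0.184).

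Medians of the members differed between calves of high and low pituitary score, which is given as a description. In the 9 calves of high pituitary score miR-219-3p had a median of 319 CPM (171 to 826), against 489 CPM (267 to 2545) in the other 21. For miR-338 the medians were 1801 CPM (1197 to 3527) and 2367 CPM (1812 to 10419). Medians in the high set were also lower for miR-219-5p (123 against 185 CPM) and miR-219b-3p (3.31 against 4.09 CPM). The scarce entry miR-219 went the other way, at 0.992 against 0.813 CPM. The 3 lowest calves for both miR-219-3p and miR-338 were all of high score. Within those 9 calves r with the score was -0.748 for miR-219-3p (exact permutation test, p = 0.0183, or 0.0267 when adjusted) and -0.773 for miR-338 (exact permutation test, p = 0.0124, adjusted p = 0.0220). The rank correlations, as Spearman's rho, were -0.80 (exact permutation test, p = 0.0138) and -0.817 (exact permutation test, p = 0.0108). Without the 2 calves farthest from the median score, r was -0.535 for miR-219-3p and -0.7105 for miR-338.

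Among the 21 calves of low score the members spread as widely, but without a detectable relation to the score. There r was -0.258 for miR-219-3p (permutation test, p = 0.257) and -0.279 for miR-338 (permutation test, p = 0.221), with rho of -0.1675 (permutation test, p = 0.467) and -0.210 (permutation test, p = 0.358). Leaving out the 2 farthest calves gave r of -0.171 and -0.231. The highest calves, HI calf 3 and MOD calf 14, had low scores.

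The mean score of the neuronal list was related to the members in opposite directions in the 2 sets of calves, while most of its single entries kept their sign. This score of 11 neuronal entries had an r with miR-338 of 0.758 in the 9 calves of high pituitary score (exact permutation test, p = 0.0173, adjusted p = 0.0267) and of -0.8205 in the other 21 (permutation test, p = 6e-05, adjusted p = 0.000137). With miR-219-3p, r in the 9 calves of 0.673 missed 0.05 after adjustment (exact permutation test, p = 0.0474, adjusted p = 0.06315), and in the other 21 it was -0.7675 (permutation test, p = 9e-05, adjusted p = 0.00018). For miR-338 rho was 0.850 (exact permutation test, p = 0.00607) and -0.651 (permutation test, p = 0.00185), and for miR-219-3p it was 0.80 (exact permutation test, p = 0.0138) and -0.630 (permutation test, p = 0.003). In the 21 calves r weakened without HI calves 1 and 3, to -0.537 for miR-338 and -0.522 for miR-219-3p. In the 9 calves it was 0.772 and 0.697 without the 2 farthest. The difference between the 2 sets was not itself tested.

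The neuronal list was not uniform, so its score hides opposite members. In the 21 calves of low pituitary score, miR-9-5p, which is made by neural progenitors as well as some neurons, had an r of 0.87 with miR-219-3p, and miR-124a, the most typical miRNA of neurons, 0.58. In contrast r was -0.89 for miR-129-5p, -0.79 for miR-153 and -0.76 for miR-137. Of these, miR-137 stood at 274 CPM in HI calf 3, the lowest of the 21 calves, against a median of 608 CPM. In the 9 calves of high score, r with miR-219-3p was again positive for miR-124a (0.83) and miR-9-5p (0.77), and again negative for miR-129-5p (-0.68). The sign turned for miR-137 (0.62) and miR-153 (0.42), and for miR-138, which went from -0.08 to 0.67. For the other entries it was the same in both sets, with miR-9-3p at 0.65 and 0.79, miR-128 at 0.48 and 0.66, miR-129-3p at -0.77 and -0.33 and miR-218 at -0.55 and -0.12 in the low and the high set. Without the 2 calves of the low set with the most extreme miR-219-3p, r there was -0.23 for miR-218, 0.33 for miR-128, -0.54 for miR-153, -0.64 for miR-129-3p and -0.65 for miR-137, and it was -0.87 for miR-129-5p and 0.83 for miR-9-5p. These correlations are given as descriptions. The entries miR-129 and miR-129-5p held the same values and are 1 measurement, which the score counts under both names.

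Among the 472 other tested miRNAs none had an r over 0.9 with miR-219-3p or miR-338 across the 30 calves. The most alike to miR-219-3p were miR-20a (r = 0.85), let-7a-3p (0.82), miR-93 (0.81), miR-17-5p (0.80) and miR-34a (0.80). The same 5 were the most alike to miR-338, led by miR-20a (0.85) and miR-93 (0.82). Of these, miR-17-5p, miR-20a and miR-93 belong to 1 seed family, which is best known in dividing cells, and miR-34a is a target of p53. They moved far less than the members. In HI calf 3 miR-20a stood at 181 CPM against a median of 101 CPM over all calves, and miR-93 at 1346 CPM against 807 CPM, each the highest of the 30. The median r of all 472 with miR-219-3p was 0.000981.

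At the other end, the entries least alike to miR-219-3p were miR-7 (r = -0.87) and the doubled miR-129 and miR-129-5p (-0.86). For miR-338 they were miR-7 (-0.87), miR-376b (-0.86) and miR-452 (-0.85). A miRNA of neuroendocrine cells in the hypothalamus and pituitary, miR-7 fell from 9594 CPM in HI calf 7 to 1969 CPM in HI calf 3, the calves with the lowest and highest miR-338. Its r with miR-338 was -0.82 within the 21 calves of low pituitary score and -0.90 within the 9 of high score, and it is one of the miRNAs in that score.

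**Figure D3:**
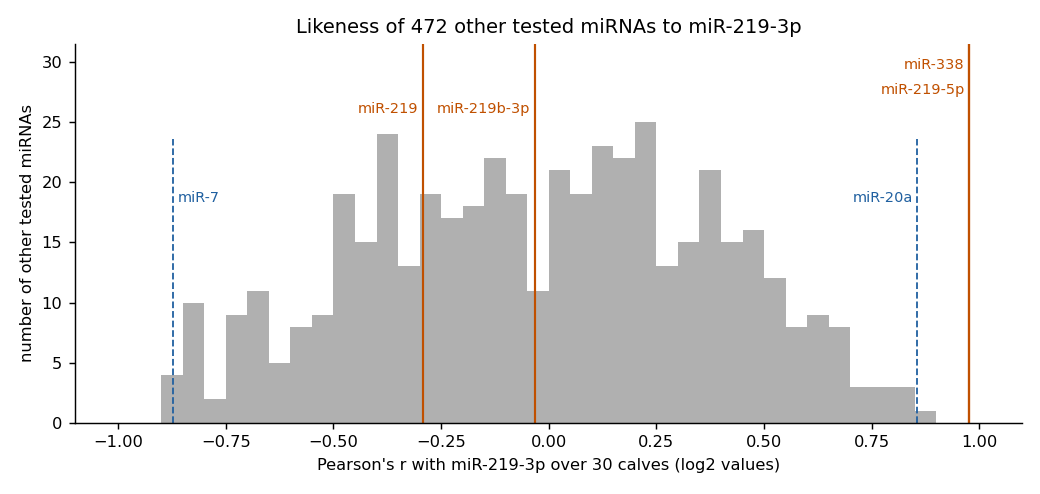
Number of the 472 other tested miRNAs by their Pearson's r with miR-219-3p over 30 calves (log2 levels). Orange lines mark the other members, with miR-338 and miR-219-5p at 0.975 and 0.977 to the right of every grey bar, and blue lines mark the miRNAs at the ends, miR-20a at 0.85 and miR-7 at -0.87.

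The order of likeness changed when the calves of high pituitary score were left out. Among the remaining 21 calves, miR-181a had an r with miR-338 of 0.96, miR-93 0.95, miR-181b 0.95, miR-27b 0.93 and miR-455-5p 0.92. In the 9 other calves the same r was -0.12 for miR-181a, 0.41 for miR-93, 0.04 for miR-181b, -0.62 for miR-27b and 0.03 for miR-455-5p. With miR-219-3p, r in the 21 calves was 0.96 for miR-455-5p and 0.92 for miR-181a, and in the 9 it was 0.14 and -0.01. The highest of these values in the 21 calves were near the r of 0.967 between miR-219-3p and miR-338 there. The level of miR-181a, one of the most abundant miRNAs of the tissue, was 176343 CPM in HI calf 3 and 100650 CPM in MOD calf 14, against a median of 61582 CPM. HI calf 7, with the lowest miR-338, also had a high miR-181a of 100030 CPM. Without the 2 calves of the 21 with the most extreme miR-219-3p, r with miR-338 was 0.90 for miR-181a, 0.88 for miR-93 and 0.85 for miR-27b.

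**Figure D4:**
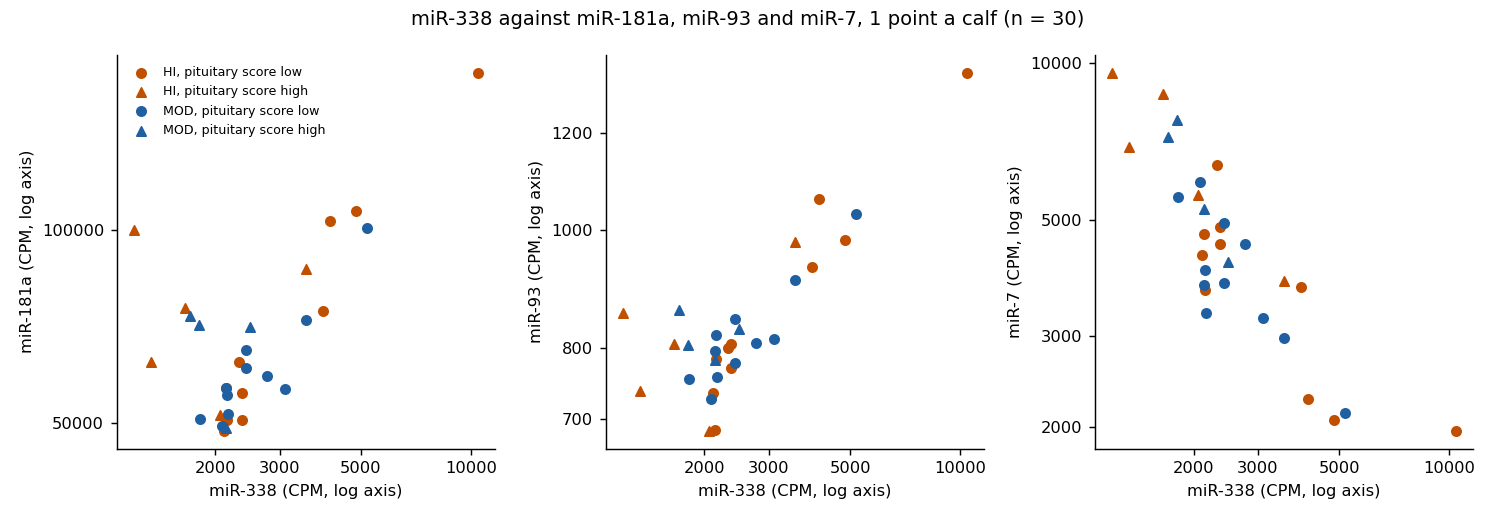
Levels of miR-181a, miR-93 and miR-7 against miR-338 (CPM, log axes), with 1 point a calf, colours for diet and triangles for high pituitary score. Among circles miR-181a and miR-93 rise with miR-338 (r of 0.96 and 0.95), while triangles at low miR-338 lie off that line. In the right panel miR-7 falls as miR-338 rises in both sets.

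Other miRNAs studied in the oligodendrocyte lineage were taken as a list of 17 stems, which gave 21 entries, all tested. None was called between the diets, against 0% of all tested miRNAs, and 1 of 21 had an unadjusted p under 0.05, against 4.41% of all. In log2 fold change 10 were above 0 and 11 below, with a median of -0.01, and the median of all 476 tested miRNAs was -0.0022. The entry with the unadjusted p under 0.05 was miR-145, which is also abundant in vascular smooth muscle, at -0.46 (standard error 0.16, adjusted p = 0.878 from limma). Of 5 entries reported to favour maturation, miR-23a (-0.02), miR-32 (0.01), miR-184 (0.02) and miR-146a (-0.01) had log2 fold changes near 0, and that of miR-138, also on the neuronal list, was -0.38 (adjusted p = 0.912 from limma).

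Across calves this list did not move as one with miR-219-3p. An r over 0.5 was found for miR-20a, miR-17-5p, miR-9-5p and miR-9-3p. An r under -0.5 was found for miR-7, miR-17-3p, miR-125a, miR-32 and miR-212. Many miRNAs outside the list also passed these bounds, so they do not set the list apart. Over all 472 other tested miRNAs r ran from -0.87 (miR-7) to 0.85 (miR-20a), with a median of 0.000981. The arms of miR-17 lay on opposite sides, at 0.80 for miR-17-5p and -0.67 for miR-17-3p. Of the 5 entries reported to favour maturation, r was -0.61 for miR-32, -0.43 for miR-23a, 0.09 for miR-146a, 0.14 for miR-184 and 0.42 for miR-138.

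**Figure D5:**
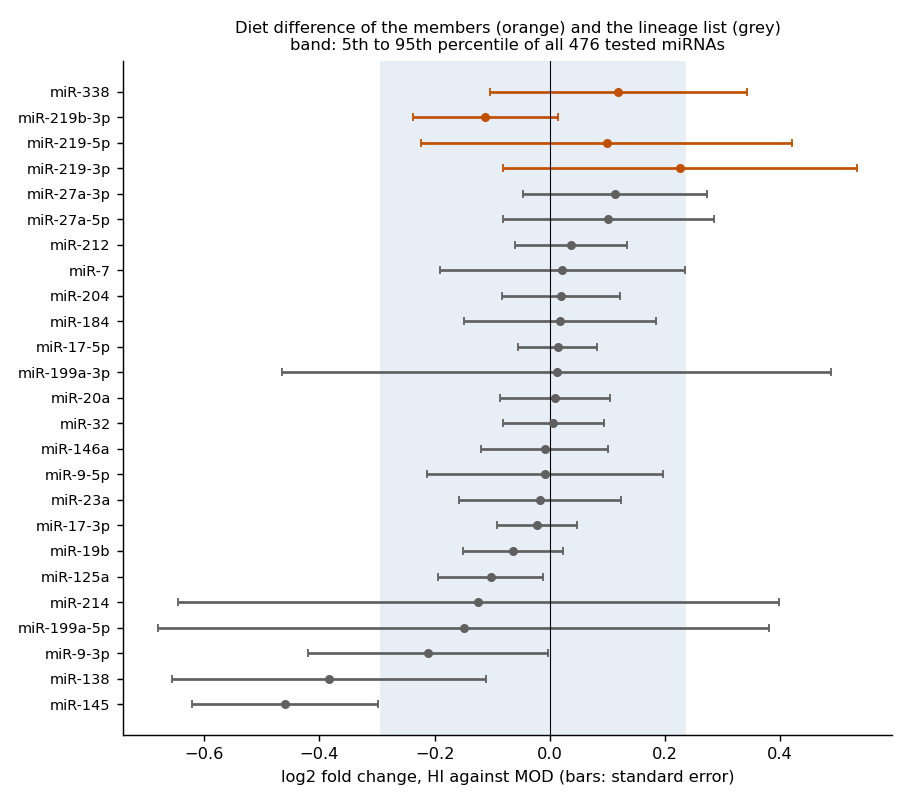
Log2 fold change of HI against MOD from limma for the 4 tested members (orange) and the 21 entries of the lineage list (grey), with bars for the standard error and a band from the 5th to the 95th percentile of all 476 tested miRNAs. The 4 members lie between -0.11 and 0.23, inside that band, and miR-145 is lowest at -0.46.

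The miRNA gene that shares its place with MIR338 gave almost no reads. Its product miR-3065 had a median of 0.273 CPM and at most 0.861 CPM, and did not pass the filter.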

How the data were processed

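Mature miRNAs were measured by small RNA sequencing in 30 ARC samples. The authors trimmed adapters, kept reads of 15 to 28 bases, discarded those from other classes of small RNA, aligned with Bowtie to ARS-UCD1.2 and quantified mature miRNAs of miRBase with miRDeep2. The deposited signal values were decimals in the form of TMM-scaled CPM, with 1 column per calf and the normalization not given in the sources used here. The value of 1 read was found in each library as the largest step of which nearly all low values were whole multiples, and between 94.5% and 97.9% of values under 200 reads were whole within 0.02 of a read. Reads so recovered were rounded for edgeR's filterByExpr and the count tests.

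Diets were compared with limma on log2(CPM + 0.25), with a pseudocount worth 2.08 reads at the median depth, over 476 miRNAs with Benjamini-Hochberg adjustment. Single values were compared by permutation tests of the absolute difference, exact where a group held fewer than 10 calves. Entries named were the members, their most and least alike miRNAs by Pearson's r, and entries of the lists. A score was the mean of centred log2 levels over tested entries of a list. Members and lists were chosen with earlier results of these data known. None of the marker lists for ependyma and choroid plexus, endothelium, smooth muscle, leukocytes or erythroid cells, nor the neuronal list, had an entry called between the diets. The share called over all 476 tested miRNAs was 0%. In that order, the median log2 fold changes of the lists were -0.39, -0.08, -0.37, -0.10, 0.03 and -0.07. The median of all tested miRNAs was -0.0022. The diet assigned to each calf came from its label. No sequence of a member was in the sources used here. The code was tested on simulated counts. Versions were limma 3.58.1, edgeR 4.0.16 and DESeq2 1.42.0 in R 4.3.3, and scipy 1.17.1 and matplotlib 3.10.9 in Python 3.11.15. The classes of depth and animal code were taken from an earlier account of these data.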

Additional observations from a re-analysis of the deposited data

How the results depend on the processing

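No setting called a member between the diets, in 14 alternatives of test, normalization, pseudocount, filter, added terms and libraries left out, or in 30 fits that each left out 1 calf. Among all miRNAs tested, 1 was called with DESeq2, without HI calf 11 and without MOD calf 15, and 0 in the other settings. Over the 14 alternatives the log2 fold change lay between 0.18 and 0.52 for miR-219-3p, between 0.06 and 0.40 for miR-219-5p and between 0.08 and 0.32 for miR-338. Over the 13 that tested miR-219b-3p it lay between -0.15 and -0.05. Leaving out 1 calf gave from 0.06 to 0.35 for miR-219-3p, from -0.06 to 0.23 for miR-219-5p, from -0.16 to -0.06 for miR-219b-3p and from -0.02 to 0.20 for miR-338. Without HI calf 3 the direction turned, to -0.063 for miR-219-5p and -0.023 for miR-338, and the cause was not tested. The relation of miR-219-3p with miR-338 kept an r between 0.972 and 0.978 without 1 calf. The log2 difference of the arm ratio lay between 0.10 and 0.15 without 1 calf, and its permutation p passed under 0.05 without HI calf 9, 12 or 13 or MOD calf 11, with a smallest value of 0.0334. A pseudocount of 1 gave 0.13. No paired analysis was possible because each calf belonged to 1 diet and the labels give no shared replicate numbers. A floor of 3 reads lay between 0.138 and 0.558 CPM depending on the library, which limits the entry miR-219. The floor covers counting error only, while the intervals of the diet differences come from the spread between calves.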

Other observations

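The SD of log2 levels was 0.79 in HI and 0.42 in MOD for miR-338, 1.06 and 0.65 for miR-219-3p, and 1.08 and 0.72 for miR-219-5p. No difference in spread between the diets passed a test. Permutation tests of the ratio of SDs, chosen after the values had been seen, gave p = 0.108 for miR-338, p = 0.130 for miR-219-3p and p = 0.201 for miR-219-5p (two-sided, unadjusted, 5 members tested). Without HI calf 3 the SD in HI was 0.59 for miR-338, 0.88 for miR-219-3p and 0.91 for miR-219-5p.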
